A study of Homo sapiens with 3 samples.

Results

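The insulin-like growth factor binding proteins are a family of 7 genes, IGFBP1 to IGFBP7, taken here by name from the 26485 genes in a count table of HEC1B, a cell line derived from a human endometrial cancer. The family was selected on its counts in all 3 libraries, which were already known, so its values are given as a description, with no p-value. The members stay in the fit over all genes, and nothing about the family is read from it. RNA was counted at 48 h in 1 library made with the siRNA siPRMT6-1 and 1 made with siPRMT6-2, both labelled as PRMT6 knockdown, and in 1 library labelled siNC with the genotype WT, the control. PRMT6 is an enzyme that methylates arginines, among them arginines of histone tails. Each library was made from 10 ng of total RNA. No siRNA has a replicate, and the labels do not say whether the 3 samples were grown as separate cultures.

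These secreted proteins bind the insulin-like growth factors IGF1 and IGF2 outside the cell, carry them, and keep them from or deliver them to the receptor IGF1R. Proteases such as PAPPA cut some of them and free the growth factor. In the endometrium IGFBP1 is a classic product of decidualised stromal cells, together with prolactin, while the other members are made in many tissues. IGFBP7 is the distant relative of the family, with low affinity for the growth factors.

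In the counts, IGFBP1, IGFBP3 and IGFBP6 were highest in the siPRMT6-2 library. IGFBP1 and IGFBP3 were also above siNC in the siPRMT6-1 library, by less than counting error can separate, and IGFBP6 was not. IGFBP7 was close to siNC with both siRNAs, and IGFBP2, IGFBP4 and IGFBP5 had at most 7 counts in any library.

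The members are related in sequence, and how alike they are bears on whether a fragment could be counted for the wrong member. IGFBP1 to IGFBP5 share a coding stretch for a glycine and cysteine motif in the amino-terminal domain of the protein, which an in-frame search of the GENCODE release 29 transcripts (GRCh38) found in 5 of the 7 members and not in IGFBP6 or IGFBP7. The stretch is shown for each member with the cysteine codons in capitals, 5′ to 3′ on the coding strand. It lies at chr7:45888818-45888841 (plus strand) in IGFBP1, chr2:216633770-216633793 (plus) in IGFBP2, chr7:45920922-45920945 (minus) in IGFBP3, chr17:40443889-40443912 (plus) in IGFBP4 and chr2:216694599-216694622 (minus) in IGFBP5.
IGFBP1: ggcTGCggcTGTTGCccgatgTGC
IGFBP2: ggcTGCggcTGCTGCtcggtgTGC
IGFBP3: ggcTGCggcTGCTGCctgacgTGC
IGFBP4: ggcTGCggcTGTTGCgccactTGC
IGFBP5: ggcTGCggcTGCTGCatgaccTGC

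The longest identical run between transcripts of 2 members was 22 bases, between IGFBP2 and IGFBP5, and it runs into that same stretch: ggagccgggctgcggctgctgc. Over the 21 pairs of members the longest shared run had a median of 15 bases and was at least 11. Read lengths are not given in the sources used here.

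By position, 4 of the 7 members lie in convergent pairs, with the 3′ ends facing each other. All coordinates are hg38 as in the deposited table. IGFBP1 (chromosome 7, 45888360 to 45893668, plus strand) and IGFBP3 (45912245 to 45921272, minus strand) are 18577 bases apart. IGFBP2 (chromosome 2, 216633404 to 216664435, plus strand) and IGFBP5 (216672105 to 216695549, minus strand) are 7670 bases apart. IGFBP4 (chromosome 17, 40443424 to 40457730), IGFBP6 (chromosome 12, 53097652 to 53102344), both on the plus strand, and IGFBP7 (chromosome 4, 57031071 to 57110385, minus strand) stand alone. IGFBP1 to IGFBP6 each share a chromosome with a HOX cluster, and IGFBP6 lies closest, 0.836 Mb from HOXC. IGFBP7 has no HOX cluster on its chromosome.

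The libraries held 381628 counts for siPRMT6-1, 362080 for siPRMT6-2 and 410916 for siNC, and at this depth 3 counts, the floor used here for a gene at 0, equal 7.78 to 9.09 CPM (counts scaled to TMM library sizes over the genes tested). The targeted gene PRMT6 had 4 counts in siPRMT6-1 and 7 in siPRMT6-2, against 25 in siNC. The siPRMT6-2 library stands apart through interferon-stimulated genes. Over 12 of them, a list chosen after their values were known, the summed counts were 171 in siPRMT6-1 and 1720 in siPRMT6-2, against 108 in siNC. Of these, IFITM3 alone had 158 in siPRMT6-1 and 449 in siPRMT6-2, against 103 in siNC, and MX1 was at 0 in all 3 libraries. Of the 10 epithelial and endometrial cancer markers, KRT8 had 681 counts in siPRMT6-1 and 770 in siPRMT6-2, against 1329 in siNC, and the summed counts of the list were 890 in siPRMT6-1 and 1110 in siPRMT6-2, against 1630 in siNC. PAX8 had 117 counts in siPRMT6-1 and 227 in siPRMT6-2, against 158 in siNC, and CDH1, KRT19 and SOX17 were at 0 in all 3 libraries. The 5 leukocyte markers summed to 19 counts in siPRMT6-1 and 57 in siPRMT6-2, against 17 in siNC, all but 1 of them from CD68, while PTPRC, CD3E and CD14 were at 0 throughout. The 7 stromal fibroblast markers summed to 366 counts in siPRMT6-1 and 375 in siPRMT6-2, against 540 in siNC, nearly all from COL1A1, with COL1A2, COL3A1, DCN and LUM at 0, and the 4 endothelial markers summed to 18 in siPRMT6-1 and 6 in siPRMT6-2, against 19 in siNC, with CDH5 and KDR at 0. The part of these markers and of the interferon genes in the values below was not tested.

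IGFBP1, the decidual marker of the family, had 9 counts in siPRMT6-1 and 29 in siPRMT6-2, against 3 in siNC. The 95% exact Poisson intervals, which here and below cover counting error only, were 4.12 to 17.1 for siPRMT6-1, 19.4 to 41.6 for siPRMT6-2 and 0.619 to 8.77 for siNC. The siPRMT6-2 interval lies above those of both other libraries, and the siPRMT6-1 and siNC intervals overlap. In CPM, siPRMT6-2 was 11.3 times siNC (95% exact binomial interval 3.50 to 58.0) and siPRMT6-1 was 3.12 times siNC (0.779 to 17.9). The siPRMT6-2 library was 3.62 times the siPRMT6-1 library (1.67 to 8.69). In bulk RNA, more cells that make a transcript and more transcript per cell cannot be told apart.

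IGFBP3, the main carrier of the growth factors in blood and the convergent neighbour of IGFBP1, had 14 counts in siPRMT6-1 and 24 in siPRMT6-2, against 7 in siNC. The order of the libraries was that of IGFBP1, with smaller differences. The CPM ratio to siNC was 4.01 with siPRMT6-2 (1.68 to 11.0) and 2.08 with siPRMT6-1 (0.786 to 6.09), and that of siPRMT6-2 to siPRMT6-1 was 1.93 (0.957 to 4.03). The intervals of the siPRMT6-1 library reach the siNC level for both genes of the pair. On the outer sides of the pair, ADCY1 had 1 count in siPRMT6-1 and 0 in siPRMT6-2, against 0 in siNC, and TNS3, 1353882 bases beyond IGFBP3, had 47 in siPRMT6-1 and 38 in siPRMT6-2, against 40 in siNC.

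IGFBP6, which prefers IGF2 over IGF1, had 1 count in siPRMT6-1 and 28 in siPRMT6-2, against 2 in siNC. Here the siPRMT6-2 library alone was high, and the siPRMT6-1 and siNC counts were both under the floor, so no fold is given between them. The CPM ratio of siPRMT6-2 to siNC was 16.4 (4.13 to 142), and to siPRMT6-1 it was 31.5 (5.20 to 1286). These ratios rest on 1 and 2 counts in the lower libraries, and their intervals are wide. SOAT2, which starts 1146 bases after IGFBP6 on the same strand, had 0 counts in all 3 libraries, and SPRYD3, 18232 bases before it on the other strand, had 41 in siPRMT6-1 and 13 in siPRMT6-2, against 35 in siNC. The library in which IGFBP1, IGFBP3 and IGFBP6 were highest is also the one with the high interferon-stimulated and CD68 counts given above, whose part in these values was not tested.

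IGFBP7, a matrix-associated member that is widely expressed, had 20 counts in siPRMT6-1 and 18 in siPRMT6-2, against 24 in siNC, with intervals that overlap throughout. The CPM ratios to siNC were 0.867 with siPRMT6-1 (0.454 to 1.64) and 0.877 with siPRMT6-2 (0.448 to 1.68), so a change smaller than about these bounds was not detectable at this depth. IGFBP7 had the most counts of the family over the 3 libraries. The genes with at least 100 counts over the 3 libraries whose 2 log2 ratios to siNC lay nearest to those of IGFBP7 were NOC2L, EEF1A1, CLASRP, RPL30 and TIMP2, at distances of 0.01 to 0.03 log2 units. Of 1902 genes compared in this way, 61 lay within 0.1.

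IGFBP2, IGFBP4 and IGFBP5 were at or near the floor. IGFBP2, a member abundant in fetal tissue, had 0 counts in siPRMT6-1 and 7 in siPRMT6-2, against 3 in siNC, and the CPM ratio of siPRMT6-2 to siNC was 2.73 (0.623 to 16.3). IGFBP4, a substrate of the protease PAPPA, had 0 counts in siPRMT6-1 and 2 in siPRMT6-2, against 2 in siNC. IGFBP5, a member that also binds extracellular matrix, had 1 counts in siPRMT6-1 and 0 in siPRMT6-2, against 0 in siNC. For IGFBP4 and IGFBP5 every library was under the floor, and no fold is given.

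**Figure D1:**
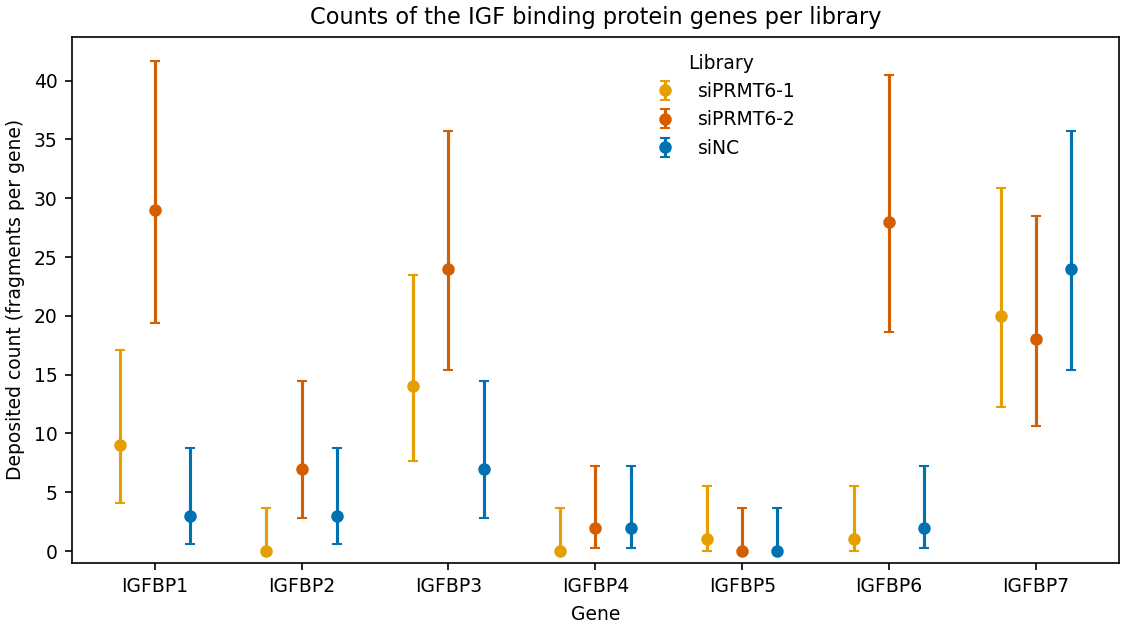
Deposited counts of the 7 members in the siPRMT6-1, siPRMT6-2 and siNC libraries, with points for the count and bars for the 95% exact Poisson interval. IGFBP1, IGFBP3 and IGFBP6 are highest in siPRMT6-2, at 29, 24 and 28 counts, while IGFBP7 lies between 18 and 24 in all 3 libraries.

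**Figure D2:**
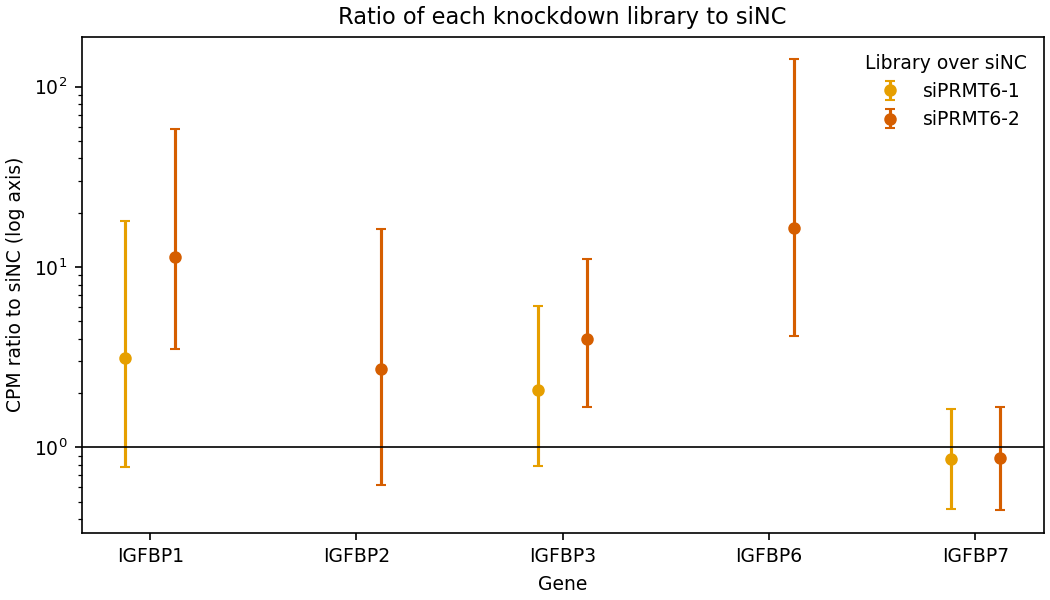
CPM ratio of each knockdown library to siNC on a log axis, with bars for the 95% exact binomial interval, for 5 members, with no point where both libraries compared were at or under the floor of 3 counts. With siPRMT6-2 the ratios are 11.3 for IGFBP1, 4.01 for IGFBP3 and 16.4 for IGFBP6, and both IGFBP7 ratios lie just under 1.

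In the edgeR quasi-likelihood test over all genes, the PRMT6 knockdown libraries against siNC, 0 of 6803 genes passed (0% called, Benjamini-Hochberg adjusted p under 0.05), with 186 genes at an unadjusted p under 0.05. DESeq2 also called 0 genes, with 13 at an unadjusted p under 0.05. With other fits in edgeR, 32 genes (the older quasi-likelihood fit) and 31 genes (the likelihood ratio test) passed. The filter on low counts kept 4 of the 7 members, IGFBP1, IGFBP3, IGFBP6 and IGFBP7. IGFBP1 and IGFBP6 passed it only through the siPRMT6-2 library in which they were high, and IGFBP3 only through the knockdown libraries. As a description, the fitted log2 fold changes of knockdown over siNC were 2.78 for IGFBP1, 1.58 for IGFBP3, 2.96 for IGFBP6 and −0.20 for IGFBP7. They treat the 2 siRNAs as replicates of 1 condition, though IGFBP6 had 1 count with siPRMT6-1 and 28 with siPRMT6-2. Past a CPM fold of 4 over siNC were 3 of the 7 members with siPRMT6-2, beside 2.82% of the genes tested, and 0 with siPRMT6-1, beside 1.21%. IGFBP3 lies at that threshold, with a ratio of 4.01, and with scaling by library totals its ratio is 3.89, which leaves 2 members past it. None of the 4 tested members was lower than siNC by a fold of 2, beside 6.61% of the genes tested with siPRMT6-1 and 7.11% with siPRMT6-2. IGFBP1, IGFBP3 and IGFBP6 were kept only through knockdown counts, so the lack of lower members was largely set by the filter. Ranked from the highest log2 ratio to siNC over the 6803 genes, IGFBP6 stood at place 47 with siPRMT6-2, IGFBP1 at 60, IGFBP3 at 170 and IGFBP7 at 4228, while with siPRMT6-1 they stood at 5223, 191, 464 and 4362. Past a fold of 2 were the 2 members IGFBP1 and IGFBP3 with siPRMT6-1, beside 7.51% of the genes tested, and IGFBP1, IGFBP3 and IGFBP6 among the members tested with siPRMT6-2, beside 10.8%. Among the 2423 tested genes with 31 to 62 counts over the 3 libraries, the range of the tested members, 2.27% were past a fold of 4 with siPRMT6-2 and 0.66% with siPRMT6-1. Nothing is read from these shares, since the family was chosen with the same values known and both comparisons share the siNC library.

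**Figure D3:**
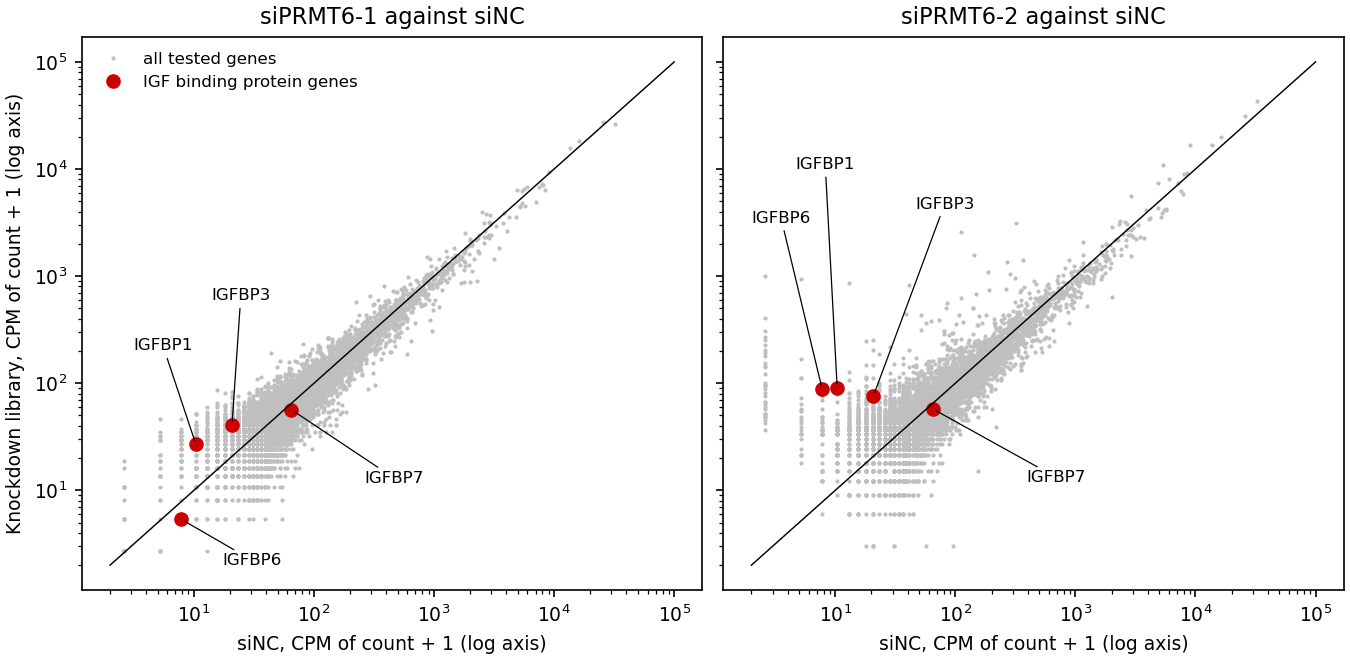
CPM of count + 1 in siPRMT6-1 (left) and siPRMT6-2 (right) against siNC, on log axes, for the 6803 tested genes in grey and the 4 tested members in red, with a line at equal values. IGFBP1, IGFBP3 and IGFBP6 lie above the line with siPRMT6-2, IGFBP7 lies near it in both panels, and with siPRMT6-1 IGFBP6 lies below it on counts under the floor.

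The family as a whole had 45 counts in siPRMT6-1 and 108 in siPRMT6-2, against 41 in siNC. The CPM ratio of that sum to siNC was 3.08 with siPRMT6-2 (2.13 to 4.53) and 1.14 with siPRMT6-1 (0.731 to 1.79). Which member led differed between libraries. Levels per kilobase of exon (CPM per kb) allow genes to be compared within a library. In siPRMT6-1 IGFBP7 had the highest level, 41.0 CPM per kb (25.0 to 63.3), followed by IGFBP1 at 14.7 (6.73 to 27.9) and IGFBP3 at 14.4 (7.85 to 24.1), with overlapping intervals between neighbours in that order. In siPRMT6-2 IGFBP6 led with a level of 87.8 CPM per kb (58.4 to 127), then IGFBP1 at 53.2 (35.7 to 76.5), IGFBP7 at 41.4 (24.5 to 65.4), IGFBP3 at 27.6 (17.7 to 41.1) and IGFBP2 at 14.8 (5.97 to 30.6), with overlapping intervals between neighbours in that order. In siNC IGFBP7 had a level of 47.2 CPM per kb (30.3 to 70.3), and IGFBP3, IGFBP2, IGFBP6 and IGFBP1 followed at 6.90, 5.44, 5.37 and 4.71, levels whose intervals overlap one another. IGFBP4 and IGFBP5 were at most 2.71 CPM per kb in all 3 libraries.

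The libraries came from a stranded kit and were counted with the strand setting 1, per the labels' protocols and the file headers. IGFBP7 is the only member that shares exon bases with an opposite-strand gene of the deposited gene models, namely IGFBP7-AS1 at its 5′ end and POLR2B, which encodes an RNA polymerase II subunit, at its 3′ end. The IGFBP7 bases shared with IGFBP7-AS1 are chr4:57109877-57109970, the 94 last bases of the first exon, all coding. They are shown because a fragment from them can fall to either gene by strand alone, 5′ to 3′ on the IGFBP7 (minus) strand, from the GENCODE transcripts.
IGFBP7: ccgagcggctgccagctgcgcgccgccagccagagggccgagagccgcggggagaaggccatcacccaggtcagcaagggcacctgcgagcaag

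IGFBP7-AS1 had 127 counts in siPRMT6-1 and 100 in siPRMT6-2, against 144 in siNC, which is 6.35, 5.56 and 6.00 times the count of IGFBP7 in the same library. The CPM ratio of IGFBP7-AS1 to siNC was 0.918 with siPRMT6-1 (0.717 to 1.17) and 0.812 with siPRMT6-2 (0.623 to 1.05). Both ratios lie within the intervals of the IGFBP7 ratios. POLR2B had 34 counts in siPRMT6-1 and 41 in siPRMT6-2, against 49 in siNC. Of 162 pairs in the table that overlap by 50 exon bases or more and hold 100 counts or more in all, the antisense-named gene had the higher count in 135 pairs in siPRMT6-1, in 135 in siPRMT6-2 and in 133 in siNC. Which strand a count stands for is therefore uncertain, also for the members without an opposite-strand partner. Should the strand setting be the reverse of the kit's read orientation, which the sources used here do not give, the counts of IGFBP1, IGFBP3 and IGFBP6 would be those of fragments antisense to these genes. In GENCODE release 29 no gene lies on the opposite strand within IGFBP1, IGFBP2, IGFBP3, IGFBP4 or IGFBP6, and an antisense gene, AC007563.2, shares 298 exon bases with IGFBP5.

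**Figure D4:**
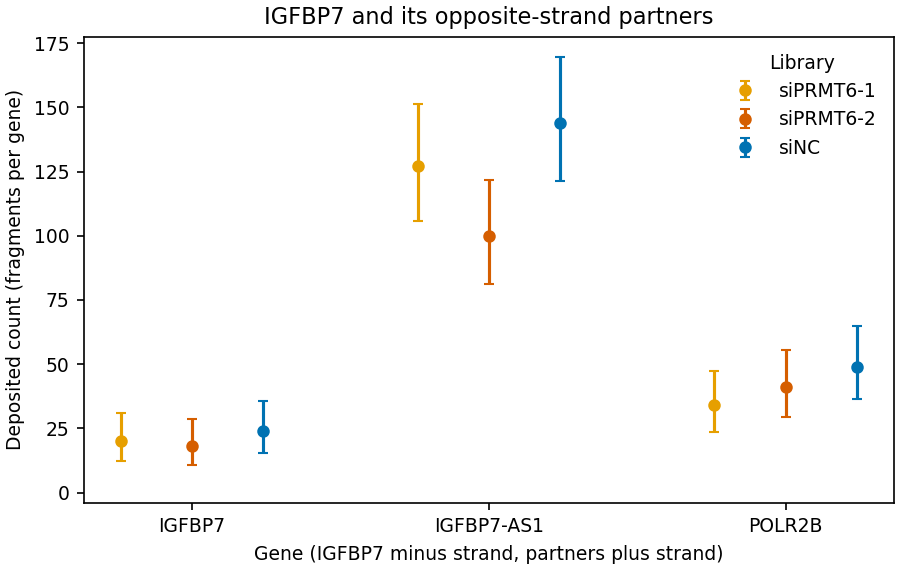
Deposited counts of IGFBP7 and of its opposite-strand partners IGFBP7-AS1 and POLR2B in the 3 libraries, with 95% exact Poisson intervals. IGFBP7-AS1 has 100 to 144 counts and IGFBP7 has 18 to 24, and all 3 genes are highest in siNC.

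The promoters of IGFBP3 and IGFBP6 are shown as those of the members high in siPRMT6-2 for which the RefSeq table (GRCh38.p14) matched, which it did for 5 of the 7 members, IGFBP2 to IGFBP6. Each line gives the 250 bases before the annotated start, 5′ to 3′ on the gene's strand, with GC boxes (GGGCGG on either strand) in capitals. IGFBP3 is chr7:45921273-45921522 on the minus strand and IGFBP6 is chr12:53097417-53097666 on the plus strand.
IGFBP3: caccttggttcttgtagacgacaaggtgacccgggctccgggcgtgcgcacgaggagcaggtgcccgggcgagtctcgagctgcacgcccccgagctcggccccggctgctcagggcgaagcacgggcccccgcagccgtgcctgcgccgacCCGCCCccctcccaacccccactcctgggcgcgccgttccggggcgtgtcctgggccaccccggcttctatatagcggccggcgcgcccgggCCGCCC
IGFBP6: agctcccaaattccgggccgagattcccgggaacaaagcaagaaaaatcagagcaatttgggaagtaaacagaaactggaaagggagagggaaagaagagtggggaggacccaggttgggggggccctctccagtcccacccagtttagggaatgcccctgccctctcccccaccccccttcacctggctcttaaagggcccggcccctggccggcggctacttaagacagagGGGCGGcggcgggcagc

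The IGFBP3 window holds 2 GC boxes, the first beginning 98 bases before the start, and has 76.0% G and C. The IGFBP6 window holds 1, beginning 17 bases before the start, and has 61.2% G and C. A GC box is in 42.6% of the 35116 promoter windows of this length. The letters of a TATA box (TATAAA, 10.7% of windows), of the core of an interferon-stimulated response element (GAAA, any 2 bases, GAAA; 3.02%) and of a gamma-activated site (TTCNNNGAA, 6.57%), each searched on both strands, are not in either window. The IGFBP4 window holds TATAAA 29 bases before the start. All positions are counted from the RefSeq start. The IGFBP6 and IGFBP4 windows run past the gene starts of the deposited table, 53097652 and 40443424, so the annotations place these starts differently. The motifs do not overlap in these windows. A match or its absence describes these letters in these windows only.

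Of the other genes of the insulin-like growth factor pathway, from a list of 41 fixed with earlier results of these data known, 20 passed the filter and 0 passed the edgeR test in either direction, beside 0% of all genes, with an adjusted p of 1.00 for each. The median log2 ratio to siNC of these 20 was 0.05 with siPRMT6-1 and −0.09 with siPRMT6-2, beside 0.01 and 0.01 over all genes tested. With siPRMT6-1, 11 were above and 9 below siNC, and with siPRMT6-2, 9 were above and 11 below. Over all 6803 genes tested, 3429 were above and 3352 below with siPRMT6-1, and 3461 above and 3342 below with siPRMT6-2.

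Among the ligands, IGF2 had 128 counts in siPRMT6-1 and 99 in siPRMT6-2, against 146 in siNC, while IGF1 had 1 in siPRMT6-1 and 0 in siPRMT6-2, against 0 in siNC, and INS was at 0 in all 3 libraries. IGF2 shares exon bases with IGF2-AS on the opposite strand, which had 1 count in each knockdown library, against 0 in siNC. The CPM ratio of IGF2 to siNC was 0.912 with siPRMT6-1 (0.714 to 1.16) and 0.793 with siPRMT6-2 (0.608 to 1.03). Among the receptors, IGF1R, which transmits the growth signal, had 12 counts in siPRMT6-1 and 13 in siPRMT6-2, against 21 in siNC. It shares exon bases with IRAIN on the opposite strand, which had 62 in siPRMT6-1 and 35 in siPRMT6-2, against 77 in siNC. IGF2R, which takes up and degrades IGF2, had 95 counts in siPRMT6-1 and 53 in siPRMT6-2, against 54 in siNC, a CPM ratio of 1.83 (1.30 to 2.61) with siPRMT6-1 and 1.15 (0.770 to 1.71) with siPRMT6-2. IGFALS, the third partner of the complex that IGFBP3 forms in blood, had 4 counts in siPRMT6-1 and 2 in siPRMT6-2, against 3 in siNC.

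The protease gene PAPPA had 19 counts in siPRMT6-1 and 2 in siPRMT6-2, against 23 in siNC. Its CPM ratio to siNC was 0.102 with siPRMT6-2 (0.0116 to 0.411) and 0.860 with siPRMT6-1 (0.443 to 1.65), and it shares exon bases with PAPPA-AS1, which had 1 count in each knockdown library, against 2 in siNC. STC2, a stanniocalcin that inhibits PAPPA, had 11 counts in siPRMT6-1 and 17 in siPRMT6-2, against 26 in siNC. PAPPA was lowest in the library in which IGFBP1 and IGFBP6 were highest. Of all genes tested, 7.11% were lower than siNC in that library by a fold of 2 or more, and a link was not tested.

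Of the signalling genes, GRB10, an adaptor that dampens signalling of the insulin and growth factor receptors, had 16 counts in siPRMT6-1 and 29 in siPRMT6-2, against 13 in siNC, a CPM ratio of 2.61 (1.31 to 5.46) with siPRMT6-2. PIK3R1, a regulatory subunit of phosphoinositide 3-kinase, had 11 counts in siPRMT6-1 and 11 in siPRMT6-2, against 5 in siNC, and AKT1, a kinase downstream of it, had 77 in siPRMT6-1 and 53 in siPRMT6-2, against 58 in siNC. Of the adaptors that dock at the activated receptors, IRS1 had 33 counts in siPRMT6-1 and 21 in siPRMT6-2, against 29 in siNC, and IRS2 had 10 in siPRMT6-1 and 6 in siPRMT6-2, against 10 in siNC. SHC1 had 21 counts in siPRMT6-1 and 41 in siPRMT6-2, against 37 in siNC, and GRB2 had 28 in siPRMT6-1 and 43 in siPRMT6-2, against 28 in siNC. Of the kinases downstream, PDPK1 had 26 counts in siPRMT6-1 and 12 in siPRMT6-2, against 19 in siNC, and AKT2 had 20 in siPRMT6-1 and 15 in siPRMT6-2, against 17 in siNC. The transcription factor gene FOXO3 had 5 counts in siPRMT6-1 and 11 in siPRMT6-2, against 8 in siNC. FOXO1, a transcription factor that drives IGFBP1 in decidual cells, had 6 counts in siPRMT6-1 and 1 in siPRMT6-2, against 3 in siNC, too few to compare. Of the related secreted proteins, CTGF had 62 counts in siPRMT6-1 and 54 in siPRMT6-2, against 79 in siNC, and CYR61 had 53 in siPRMT6-1 and 45 in siPRMT6-2, against 53 in siNC. The mRNA-binding proteins that share part of the name but do not bind the growth factors are also listed. IGF2BP1 had 61 counts in siPRMT6-1 and 37 in siPRMT6-2, against 39 in siNC, and IGF2BP2 had 49 in siPRMT6-1 and 46 in siPRMT6-2, against 62 in siNC. IGF2BP3 had 7 counts in siPRMT6-1 and 9 in siPRMT6-2, against 12 in siNC. In GENCODE, AKT1, IRS2, SHC1, PDPK1, CTGF, IGF2BP1 and IGF2BP3 also share exon bases with genes on the opposite strand.

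**Figure D5:**
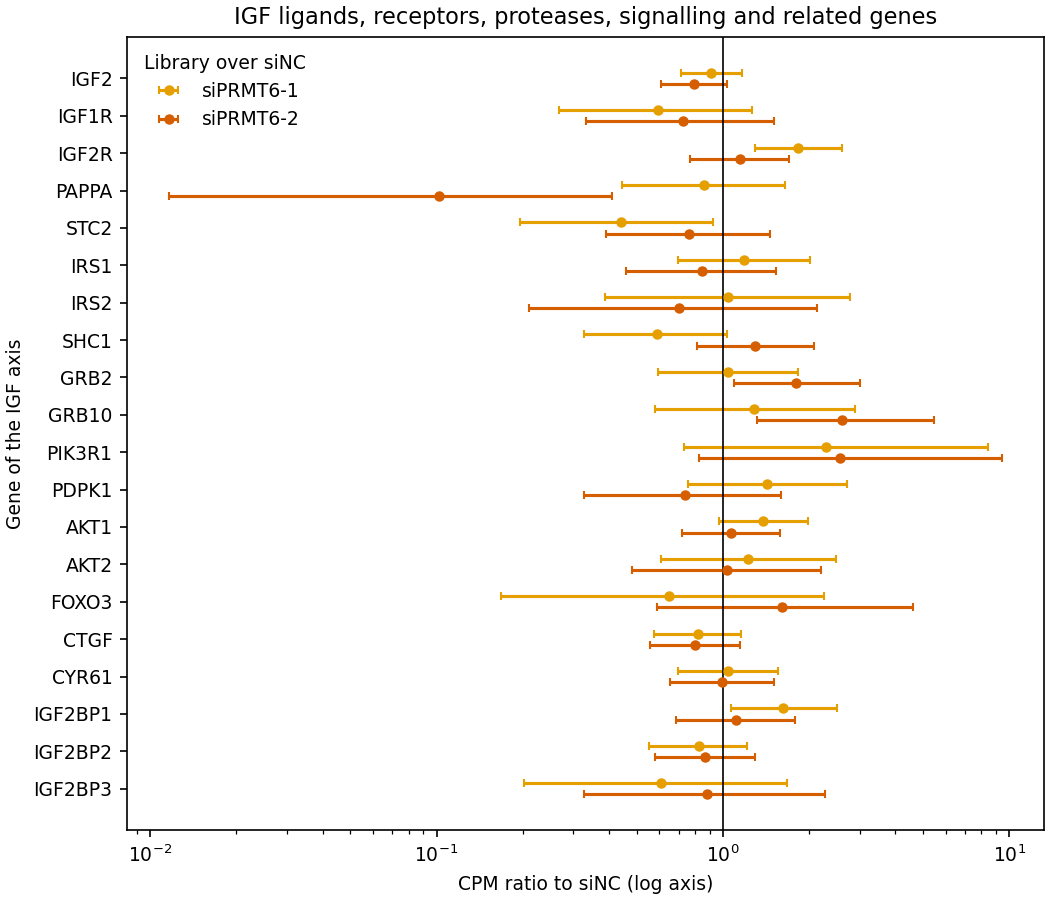
CPM ratio to siNC on a log axis for the 20 tested genes of the insulin-like growth factor pathway, for siPRMT6-1 and siPRMT6-2, with 95% exact binomial intervals. The intervals of IGF2R, STC2 and IGF2BP1 with siPRMT6-1 and of PAPPA, GRB2 and GRB10 with siPRMT6-2 leave out 1, and PAPPA with siPRMT6-2, at 0.102, lies farthest from it. The intervals cover counting error only. The share of all tested genes whose interval leaves out 1 was not computed, so these are not read as changes.

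IGFBP1 was set beside other genes of decidualisation and of the endometrium, since it is used as a marker of that program. Of 29 listed genes 8 passed the filter and 0 passed the edgeR test, beside 0% of all genes. At 0 in all 3 libraries were 12 of the 29, among them PRL, which encodes prolactin, HAND2, PGR and ZBTB16. Over all 26485 genes, 6803 passed the filter and 16244 had any count, so zeros were common outside this list too. The median log2 ratio to siNC of the 8 was −0.01 with siPRMT6-1 and 0.51 with siPRMT6-2, beside 0.01 and 0.01 over all genes tested. With siPRMT6-1, 4 were above and 4 below siNC, and with siPRMT6-2, 7 were above and 1 below. Over all 6803 genes tested, 3429 were above and 3352 below with siPRMT6-1, and 3461 above and 3342 below with siPRMT6-2. SOD2 passed the filter only through siPRMT6-2, STAT3 only through the knockdown libraries and WNT4 only through siNC. The medians and the counts above and below rest in part on that selection. SOD2, a mitochondrial superoxide dismutase gene, had 7 counts in siPRMT6-1 and 17 in siPRMT6-2, against 1 in siNC, and STAT3, a transcription factor of cytokine signalling, had 10 in siPRMT6-1 and 17 in siPRMT6-2, against 4 in siNC. In GENCODE the coding gene WTAP overlaps SOD2 on the opposite strand. GPX3, which encodes a secreted glutathione peroxidase, had 21 counts in siPRMT6-1 and 42 in siPRMT6-2, against 19 in siNC, and CEBPB had 35 in siPRMT6-1 and 57 in siPRMT6-2, against 44 in siNC, opposite CEBPB-AS1, which had 630 in siPRMT6-1 and 1004 in siPRMT6-2, against 892 in siNC. LIF, which encodes a cytokine of implantation, had 15 counts in siPRMT6-1 and 31 in siPRMT6-2, against 26 in siNC, and shares exon bases with antisense genes in GENCODE. WNT4 had 4 counts in siPRMT6-1 and 5 in siPRMT6-2, against 11 in siNC. HOXA10 and NR2F2 encode transcription factors of the uterus. HOXA10 had 61 counts in siPRMT6-1 and 58 in siPRMT6-2, against 65 in siNC. HOXA10-AS, opposite it, had 72 in siPRMT6-1 and 79 in siPRMT6-2, against 75 in siNC. NR2F2 had 117 in siPRMT6-1 and 112 in siPRMT6-2, against 121 in siNC. In siPRMT6-2, where IGFBP1 had 29 counts, PRL had 0, which lies under the floor of 3 counts, or 9.09 CPM in that library. The doubt about strand given above holds for PRL and the other genes at 0, so these zeros need not mean absent transcripts.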

How the data were processed

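The deposited table holds raw counts, whole numbers per gene, with the summed exon length. The submitters' processing notes name STAR 2.7.8a, featureCounts 2.0.10 and hg38. Per the file headers, featureCounts (there 2.0.1) counted read pairs over exons, summed by gene name, under strand setting 1, with fragments in overlapping genes given to each, and the names of its inputs mention UMIs and deduplication. Columns were matched through each sample's description, in which siPRMT6-1 is si2 and siPRMT6-2 is si3.

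The members and lists were chosen with earlier results of these data known. Named by rule were the members, list genes with at least 10 counts in a library, opposite-strand partners of members, PRMT6 and the 5 genes nearest in pattern to the member with most counts. Neighbours, partners of list genes, markers and list genes under 10 counts were named after their values were seen.

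All genes were fitted in edgeR 4.0.16 (R 4.3.3; TMM, filterByExpr with minimum count 10 and total 15, quasi-likelihood test, two-sided). The residual spread of each gene came from the 2 siRNAs alone, with 1 residual degree of freedom. It was moderated with information from all genes, worth 12.8 prior degrees of freedom. The lone siNC library was assumed to vary alike. The p-values reflect differences among single libraries, which may be technical. The code was run on simulated counts in which both knockdown libraries changed alike, to check the fitted fold. That run does not bear on power, or on changes in a single library. Alternatives were DESeq2 1.42.0 and other scalings, filters and fits. Log2 ratios used a prior count of 2. Among the shares past a fold, a gene with 0 counts in siNC and any in knockdown was included.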

Additional observations from a re-analysis of the deposited data

How the results depend on the processing

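The edgeR quasi-likelihood test called 0 genes, also with DESeq2 size factors, with library totals, without the filter and after removal of genes overlapping others in antisense, and the DESeq2 Wald test called 0. By contrast 32 genes were called with the older quasi-likelihood fit and 31 with the likelihood ratio test, and the cause was not tested. Counting these zeros, 52 values recomputed under another scaling, filter, prior count or opposite-strand partner were labelled unchanged. They stayed at 0, within counting error or, for list medians, within the gap between the siRNAs. That tally is no test of robustness, because scalings shift values little beside the counting intervals. A count of 0 also stays 0 under any scaling. The IGF list median with siPRMT6-2 moved from −0.085 to −0.0104 among genes with at least 10 counts in every library. With library totals the IGFBP3 ratio with siPRMT6-2 was 3.89, under a fold of 4. Averaged over both siRNAs, the CPM ratio to siNC was 7.21 for IGFBP1, and 3.12 to 11.3 when one knockdown library was left out. In the same way it was 1.36 (0 to 2.73) for IGFBP2, 3.04 (2.08 to 4.01) for IGFBP3, 8.44 (0.520 to 16.4) for IGFBP6 and 0.872 (0.867 to 0.877) for IGFBP7. Without the siPRMT6-2 library the IGFBP6 value rests on 1 and 2 counts and the IGFBP2 value on 0 and 3. These are at or under the floor, so neither value is read as a fold. The averages treat the siRNAs as replicates of 1 condition, though each is a different siRNA in a single library. With a lone siNC library, leaving it out gives no value. No paired analysis was possible because siNC is a single library. Depth limits IGFBP2, IGFBP4 and IGFBP5, which lie at or near the floor.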
